A study of Homo sapiens with 4 samples.

Results

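MHC class I molecules carry peptides from inside the cell to its surface, where CD8 T cells and natural killer cells read them. A heavy chain, encoded by the HLA genes, pairs with the light chain beta-2-microglobulin (B2M) in the endoplasmic reticulum. The transporter TAP1 and TAP2 brings cytosolic peptides in, tapasin (TAPBP) holds the empty heavy chain beside the transporter while peptides are tried, and the transactivator NLRC5 drives transcription of most of these genes. Hepatocytes are known for low class I levels that interferon raises, and loss of heavy chains, B2M or the transporter is a known route of immune escape in carcinomas.

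The data described here are the transcript levels of 9 genes of this pathway, chosen by name: the heavy chains HLA-B, HLA-C, HLA-E and HLA-F, the light chain B2M, the loading genes TAP1, TAP2 and TAPBP, and NLRC5. All 9 were found among the 58174 genes listed, and all 9 passed the filter used for testing, an FPKM (fragments per kilobase of gene, scaled to the mapped fragments of the library) of at least 1 in any library. Their identifiers are ENSG00000234745 (HLA-B), ENSG00000204525 (HLA-C), ENSG00000204592 (HLA-E), ENSG00000204642 (HLA-F), ENSG00000166710 (B2M), ENSG00000168394 (TAP1), ENSG00000204267 (TAP2), ENSG00000231925 (TAPBP) and ENSG00000140853 (NLRC5), all protein-coding genes. On chromosome 6 of hg38, the plus strand holds HLA-F (29722775 to 29738528) and HLA-E (30489467 to 30494205), and the minus strand holds TAP2 (32821833 to 32838780), TAP1 (32845209 to 32853978) and TAPBP (33299694 to 33314387); the other 4 are placed where they are described. The 4 libraries were LM3 cells with si-FENDRR, LM3 cells with si-NC, RBE cells with si-FENDRR and RBE cells with si-NC. LM3 is a hepatocellular carcinoma line and RBE an intrahepatic cholangiocarcinoma line; si-FENDRR is an siRNA directed at FENDRR, a long noncoding RNA, si-NC is the negative control, and both were delivered by lipid transfection for 48 h before RNA was taken from the whole culture. With 1 library per line and transfection, a difference within a line has no replicate check, and none of the labels names a second culture.

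Between 13437 and 13682 genes per library were at an FPKM of at least 1. FENDRR was listed at 0 in all 4 libraries, so the knockdown could not be checked and the libraries are compared by label. ALB, the hepatocyte marker albumin, was at 35.7 and 33.3 FPKM in LM3 (si-FENDRR and si-NC) against 0.251 and 0.27 in RBE, and the biliary keratin KRT7 was at 7.21 and 6.02 FPKM in LM3 against 429 and 391 in RBE. Not all markers followed the labels: the hepatocyte genes APOA1 and CYP3A4 were under 1 FPKM in every library. The biliary gene SPP1 was at 1118 and 909 FPKM in LM3 against 515 and 504 in RBE, and MUC1 at 2.66 and 2.75 against 2.96 and 2.83. The hepatocyte gene SERPINA1 also went against the labels, with 0.0957 and 0.0892 FPKM in LM3 against 56.8 and 82.5 in RBE. Of 12 immune cell markers, the T cell genes CD3D and CD3E and the B cell gene MS4A1 were listed at 0 in all 4 libraries, and the pan-leukocyte gene PTPRC was listed at 0 in LM3, against 0.13 and 0.0862 FPKM in RBE. The summed level of the 12 was 69.55 and 68.4 FPKM in LM3 (si-FENDRR and si-NC) and 28.7 and 28.3 FPKM in RBE. The genes that made up most of it were the lysosomal gene CD68, at 60.1 and 62.2 FPKM in LM3 against 14.2 and 13.9 in RBE, the integrin gene ITGAM, at 8.75 and 5.21 against 1.40 and 1.64, and the lysozyme gene LYZ, at no more than 0.128 FPKM in LM3 against 12.7 and 12.5 in RBE. Their part in the class I levels was not tested. In whole-culture RNA, fewer cells that express a gene and less RNA per cell cannot be told apart.

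The promoters of B2M and of 3 heavy chains are shown because class I genes are known for a shared set of upstream elements. RefSeq promoter windows on GRCh38.p14 were found for 7 of the 9 genes. The 250 bases before the start site are printed 5′ to 3′ on the gene's strand, and capitals mark the words searched, each on both strands. They were an interferon-response-like word (GAAANNGAA, or GAANNGAAA), a kappa B word (GGGATTCCC) and the word CTGATTGG, labelled Y box here. The windows are chr15:44711267-44711516 on the plus strand for B2M, chr6:31272093-31272342 on the minus strand for HLA-C, chr6:31357180-31357429 on the minus strand for HLA-B and chr6:29723184-29723433 on the plus strand for HLA-F.
B2M promoter: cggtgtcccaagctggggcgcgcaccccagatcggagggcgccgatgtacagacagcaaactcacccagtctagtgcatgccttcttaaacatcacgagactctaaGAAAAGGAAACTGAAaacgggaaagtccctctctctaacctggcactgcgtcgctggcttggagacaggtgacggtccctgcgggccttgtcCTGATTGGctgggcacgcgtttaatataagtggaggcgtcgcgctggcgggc
HLA-C promoter: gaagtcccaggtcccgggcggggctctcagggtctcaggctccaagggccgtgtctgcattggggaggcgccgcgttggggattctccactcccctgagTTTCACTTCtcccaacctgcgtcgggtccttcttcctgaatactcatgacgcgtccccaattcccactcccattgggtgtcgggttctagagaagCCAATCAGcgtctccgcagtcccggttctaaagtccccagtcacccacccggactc
HLA-B promoter: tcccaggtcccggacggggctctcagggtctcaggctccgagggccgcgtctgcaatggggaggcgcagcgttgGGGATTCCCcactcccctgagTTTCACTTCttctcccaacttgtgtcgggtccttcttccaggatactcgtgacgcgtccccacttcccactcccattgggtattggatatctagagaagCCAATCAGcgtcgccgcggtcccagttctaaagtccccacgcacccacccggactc
HLA-F promoter: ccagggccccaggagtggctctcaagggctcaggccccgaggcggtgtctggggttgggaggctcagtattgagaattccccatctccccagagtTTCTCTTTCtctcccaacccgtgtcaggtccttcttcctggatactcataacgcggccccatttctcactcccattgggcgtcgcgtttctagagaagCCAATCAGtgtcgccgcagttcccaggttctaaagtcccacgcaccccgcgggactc

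The Y box word stood in the promoters of B2M, HLA-B, HLA-C and HLA-F, 4 of the 7 genes, and in 3.81% of the 35116 promoters of the same length. It began at position -52 from the start site in B2M and at positions -57 to -56 in the 3 heavy chains, where it lay on the other strand. The windows of these 3 also hold the letters cattggg, unmarked, on the gene's strand. Which of these stretches acts as the Y box of the heavy chains was not tested. The word GAAANNGAA was found in B2M, HLA-F, TAP1, TAP2 and TAPBP, 5 of the 7 genes and 6.88% of all promoters. The form GAANNGAAA was added after the first search; it stood in HLA-B, HLA-C and TAP2 and in 6.555% of all promoters. In TAP2 the 2 forms overlap, and B2M, TAP1 and TAPBP each hold a pair of overlapping copies of the first. The kappa B word was found in HLA-B alone among the 7, and in 0.362% of all promoters. Other forms of the kappa B site were not searched. Such matches describe the letters of these windows only.

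**Figure D1:**
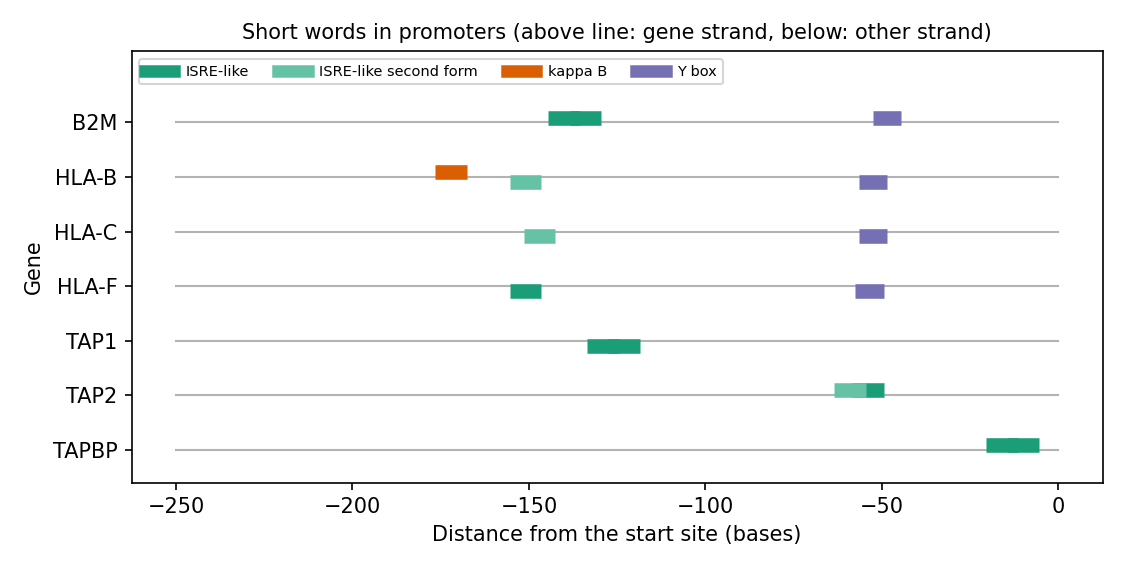
Positions of the searched words in the 250 bases before the start site of 7 genes, in bases from the start site, with words on the gene's strand above the line and words on the other strand below it. The word labelled Y box lies between positions -57 and -45, on the gene's strand in B2M and on the other strand in the 3 heavy chains. The kappa B word is in HLA-B.

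B2M had the largest within-line differences of the 9 genes, in opposite directions in the 2 lines. In LM3 the si-FENDRR library had 62.6 FPKM and the si-NC library 377 FPKM, 6.02-fold lower with si-FENDRR. In RBE the si-FENDRR library had 238 FPKM and the si-NC library 36.5 FPKM, 6.52-fold higher with si-FENDRR. The 2 high libraries were thus LM3 with si-NC and RBE with si-FENDRR, and the 2 low ones were LM3 with si-FENDRR and RBE with si-NC. On the log2(FPKM + 1) scale the difference of si-FENDRR minus si-NC was -2.57 in LM3 and 2.67 in RBE. By size it ranked 25 in LM3 and 15 in RBE among the 15930 genes tested, and the gap between the 2 lines' differences ranked 7. A test of that gap would leave 0 residual degrees of freedom, so it was not tested.

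Over both lines the B2M differences cancelled, with a log2 difference of 0.05 ± 1.33 (SE, n = 2 lines, adjusted p = 0.999 by limma). Its standard error was the largest of the 9 genes. B2M lies at chromosome 15, 44711477 to 44718877 on the plus strand of hg38, and no other listed gene overlaps that span. Of the 6412 distinct 50-base words in its GENCODE 29 transcripts, 0 occur in transcripts of another gene. The 15 transcript models of B2M were not listed separately, and whether reads moved between models was not tested. Opposed differences past 2-fold in both lines were seen in 25 of the 15930 genes.

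**Figure D2:**
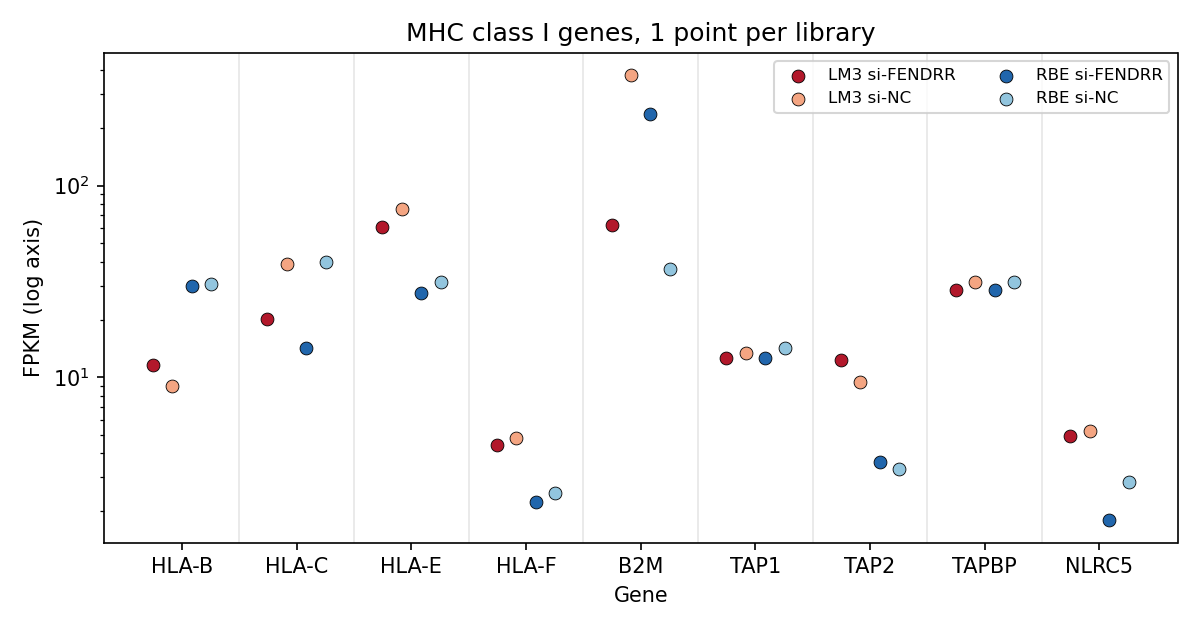
FPKM of the 9 class I pathway genes on a log axis, 1 point per library, with si-FENDRR left of si-NC in each line. B2M spans 36.5 to 377 FPKM with the order of the transfections reversed between the lines, HLA-C is lower with si-FENDRR in both lines, and TAPBP lies between 28.4 and 31.5 FPKM in all 4 libraries.

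Among the heavy chains, HLA-C had lower values with si-FENDRR in each line. HLA-C, a classical heavy chain and the main ligand of killer-cell immunoglobulin-like receptors, was at 20.3 FPKM (si-FENDRR) and 38.9 FPKM (si-NC) in LM3, and at 14.3 (si-FENDRR) and 39.7 (si-NC) in RBE. The 2 si-FENDRR libraries lay below both si-NC libraries, and the share of all tested genes that did so was not counted. By sign alone, 21.8% of all tested genes were lower with si-FENDRR in both lines. The level was 1.92-fold lower in LM3 and 2.79-fold lower in RBE, and the log2 difference over both lines was -1.16 ± 0.17 (SE, n = 2 lines, adjusted p = 0.959 by limma), with an unadjusted p of 0.00264. It was the only one of the 9 genes with an unadjusted limma p under 0.05, which 657 of all tested genes reached, and by size it ranked 62. The gene lies at chromosome 6, 31268749 to 31272130 on the minus strand, and its gene model shares 35 exonic bases with that of HLA-B. The HLA-B model, at 31269491 to 31357188 on the same strand, also spans MIR6891, RPL3P2, AL671883.1, AL671883.2, USP8P1 and WASF5P without shared exonic bases, and the antisense AL671883.3 with 542. Of the 2826 distinct 50-base words in HLA-C transcripts, 5.38% also occur in transcripts of another gene, so reads from there may have been split between class I genes.

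HLA-B, HLA-E and HLA-F differed by less than 2-fold between the transfections. HLA-B, the other classical heavy chain among the 9, was at 11.6 FPKM (si-FENDRR) and 9.02 FPKM (si-NC) in LM3, and at 29.9 (si-FENDRR) and 30.6 (si-NC) in RBE. HLA-E, which presents leader peptides of other class I chains to the receptor NKG2A, was at 61.1 FPKM (si-FENDRR) and 75.4 FPKM (si-NC) in LM3, and at 27.7 (si-FENDRR) and 31.3 (si-NC) in RBE. HLA-F, a nonclassical heavy chain, was at 4.43 FPKM (si-FENDRR) and 4.80 FPKM (si-NC) in LM3, and at 2.24 (si-FENDRR) and 2.49 (si-NC) in RBE. In all 3 genes the values of the 2 lines stood apart and those of the 2 transfections within a line stood close. Of all tested genes, 58.7% were called between the lines and 96.4% stayed under 2-fold between the transfections in both lines. Their adjusted limma p-values over both lines were 0.964, 0.959 and 0.969, with 95% intervals of the log2 difference of -0.26 to 0.56 for HLA-B, -0.55 to 0.08 for HLA-E and -0.46 to 0.26 for HLA-F. HLA-F shares 535 exonic bases with the antisense gene HLA-F-AS1, 701 with AL645939.2 and 257 with RPL23AP1, also antisense, and because no source used here gives the strand setting, reads of a gene and its antisense partner cannot be told apart, as also for TAP1 and HLA-B.

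Summed over these 4 heavy chain genes, the si-FENDRR and si-NC libraries had 97.4 and 128 FPKM in LM3, and 74.1 and 104 FPKM in RBE. Heavy chain genes outside the 9 were left out of the sum. HLA-C made up 20.8% (si-FENDRR) and 30.3% (si-NC) of the sum in LM3, and 19.2% (si-FENDRR) and 38.2% (si-NC) in RBE. The ratio of B2M to the heavy chain sum was 0.643 (si-FENDRR) and 2.94 (si-NC) in LM3, and 3.21 (si-FENDRR) and 0.351 (si-NC) in RBE. The light chain thus exceeded the 4 heavy chains in one library of each line, a different transfection in each.

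The peptide-loading genes and NLRC5 stayed under 2-fold in both lines. TAP1, a chain of the peptide transporter, was at 12.6 FPKM (si-FENDRR) and 13.4 FPKM (si-NC) in LM3, and at 12.6 (si-FENDRR) and 14.3 (si-NC) in RBE. TAP2, its partner chain, was at 12.4 FPKM (si-FENDRR) and 9.44 FPKM (si-NC) in LM3, and at 3.63 (si-FENDRR) and 3.33 (si-NC) in RBE. TAPBP was at 28.5 FPKM (si-FENDRR) and 31.3 FPKM (si-NC) in LM3, and at 28.4 (si-FENDRR) and 31.5 (si-NC) in RBE. With si-FENDRR, TAP2 was thus a little higher in each line, and TAP1 and TAPBP a little lower in each, with adjusted limma p-values from 0.959 to 0.964. The 95% intervals of the log2 difference over both lines were -0.46 to 0.20 for TAP1, -0.16 to 0.61 for TAP2 and -0.45 to 0.17 for TAPBP. TAP1 shares 456 exonic bases with the antisense gene PSMB8-AS1. TAP2 shares 2064 with AL669918.1 on its own strand, a model at no more than 0.203 FPKM in any library. Of the 6436 distinct 50-base words in TAP2 transcripts, 31.34% also occur in AL669918.1, so reads from there may have been split between these models.

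NLRC5 was at 4.93 FPKM (si-FENDRR) and 5.26 FPKM (si-NC) in LM3, and at 1.79 (si-FENDRR) and 2.83 (si-NC) in RBE. The RBE library with si-FENDRR was the lowest of the 4, and si-FENDRR minus si-NC gave log2 values of -0.08 for LM3 and -0.46 for RBE (-0.27 ± 0.16 SE over both lines, adjusted p = 0.959 by limma). NLRC5, at chromosome 16, 56989485 to 57083531 on the plus strand, overlaps AC023825.1 and AC023825.2, both listed at 0, and shares no exonic base with either.

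Counted together, 0 of the 9 genes were called (adjusted p under 0.05) between si-FENDRR and si-NC over both lines by limma, where 0% of the 15930 tested genes were called. In LM3, 1 of 9 was at least 2-fold lower with si-FENDRR (B2M) against 0.942% of all tested genes, and 0 were at least 2-fold higher, against 1.19%. In RBE, 1 of 9 was at least 2-fold lower (HLA-C) against 0.873% of all, and 1 was at least 2-fold higher (B2M) against 0.879%. The other 7 stayed under 2-fold in both lines, as did 96.4% of all tested genes. By sign alone, 6 of 9 were lower with si-FENDRR in both lines (HLA-C, HLA-E, HLA-F, TAP1, TAPBP and NLRC5), where 21.8% of all tested genes were. TAP2 was higher in both, where 26.9% of all were, and B2M and HLA-B had opposite signs, as had 47.1% of all. Apart from HLA-C, the 5 genes lower in both lines differed by 1.07-fold to 1.58-fold. The median log2 difference of the 9 was -0.10 in LM3 and -0.14 in RBE, against 0 and 0.02 over all tested genes. Beside this, the 6 genes were also lower in both lines when libraries were scaled by median of ratios, where 27.4% of all tested genes were. So they were with equal FPKM totals, where 21.3% of all were. These scalings moved the median within-line differences only by -0.03 to 0.029, and the smallest difference of the 6 genes was -0.077 (NLRC5 in LM3). They could thus hardly change the count. The 9 genes were chosen with earlier results of these data known.

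**Figure D3:**
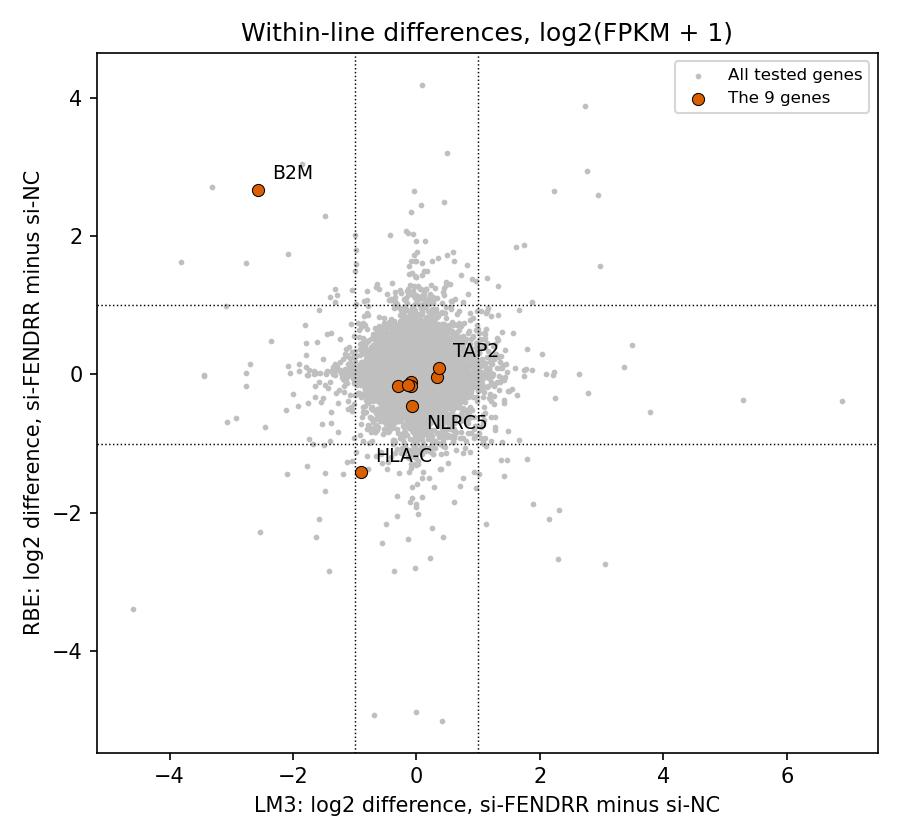
Difference of si-FENDRR minus si-NC in log2(FPKM + 1) in LM3 (x axis) and RBE (y axis), with all 15930 tested genes in grey, the 9 class I pathway genes in orange and dotted lines at 2-fold. B2M lies at -2.57 and 2.67, HLA-C at -0.91 and -1.42, and the other 7 genes lie inside the 2-fold lines.

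The genes whose 4 log2 values, centred on their mean, came closest to those of B2M were AC020915.6, AC007731.5 and ZC3H11A, at Euclidean distances of 0.65, 0.82 and 0.82. ZC3H11A, a zinc finger protein of messenger RNA export, was at 3.11 FPKM (si-FENDRR) and 16.4 FPKM (si-NC) in LM3, and at 11 (si-FENDRR) and 2.60 (si-NC) in RBE. AC020915.6 was at 0.0928 FPKM (si-FENDRR) and 9.83 FPKM (si-NC) in LM3, and at 6.02 (si-FENDRR) and 0.0739 (si-NC) in RBE, the same order of high and low libraries as B2M. Closest to HLA-C were ADPRHL1, PPM1M and CITED2, at distances of 0.36, 0.40 and 0.42. CITED2, a coregulator that binds CBP and p300, was at 10.3 FPKM (si-FENDRR) and 20.3 FPKM (si-NC) in LM3, and at 9.99 (si-FENDRR) and 19.2 (si-NC) in RBE. With 4 libraries, such likeness describes these samples only.

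Of the 9 class I genes, 5 were called by limma between LM3 and RBE, where 58.7% of all tested genes were called. TAP2, HLA-E, NLRC5 and HLA-F were higher in LM3, 4 of 9 against 32.3% of all tested genes, and HLA-B was lower in LM3, 1 of 9 against 26.4%. HLA-B averaged 10.3 FPKM in LM3 against 30.2 in RBE (-1.47 ± 0.15 SE on the log2 scale, n = 2 libraries per line, adjusted p = 0.00386 by limma). TAP2 averaged 10.9 FPKM in LM3 against 3.48 in RBE (1.40 ± 0.14, adjusted p = 0.00383 by limma), and HLA-E averaged 68.3 against 29.5 FPKM (1.18 ± 0.11, adjusted p = 0.00354 by limma). NLRC5 averaged 5.09 FPKM in LM3 against 2.31 in RBE (0.90 ± 0.16, adjusted p = 0.0141 by limma), and HLA-F averaged 4.62 against 2.36 (0.74 ± 0.13, adjusted p = 0.013 by limma). No condition was repeated within a line, and these tests take its 2 transfections as replicates. Reads were aligned to hg38. How well the alleles of each line match it was not tested, for HLA-B as for the other MHC genes described here.

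The other 4 genes were not called between the lines. TAPBP averaged 29.9 FPKM in both lines, with a log2 difference of -0.001 ± 0.109 (adjusted p = 0.993 by limma), and TAP1 averaged 13 FPKM in LM3 against 13.4 in RBE (-0.04 ± 0.12, adjusted p = 0.77 by limma). HLA-C averaged 29.6 FPKM in LM3 against 27 in RBE (0.22 ± 0.17, adjusted p = 0.315 by limma). B2M averaged 220 FPKM in LM3 against 137 in RBE (0.71 ± 1.33, adjusted p = 0.669 by limma), and its values overlapped between the lines.

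In fits with a single library left out, the line was the only term, and 1 line kept a single library that is assumed to vary like the other line, whose spread comes from its 2 transfections. Some calls between the lines were lost in these fits. NLRC5 missed the threshold without LM3 si-FENDRR (0.94, adjusted p = 0.108), without LM3 si-NC (0.86, adjusted p = 0.122) and without RBE si-FENDRR (0.67, adjusted p = 0.0602), all by limma. HLA-F missed it without RBE si-FENDRR (0.69, adjusted p = 0.0602) and without RBE si-NC (0.79, adjusted p = 0.0516), HLA-E without RBE si-FENDRR (1.09, adjusted p = 0.0537) and TAP2 without RBE si-NC (1.35, adjusted p = 0.0551), all by limma. The directions of these 5 genes held in all 4 fits.

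**Figure D4:**
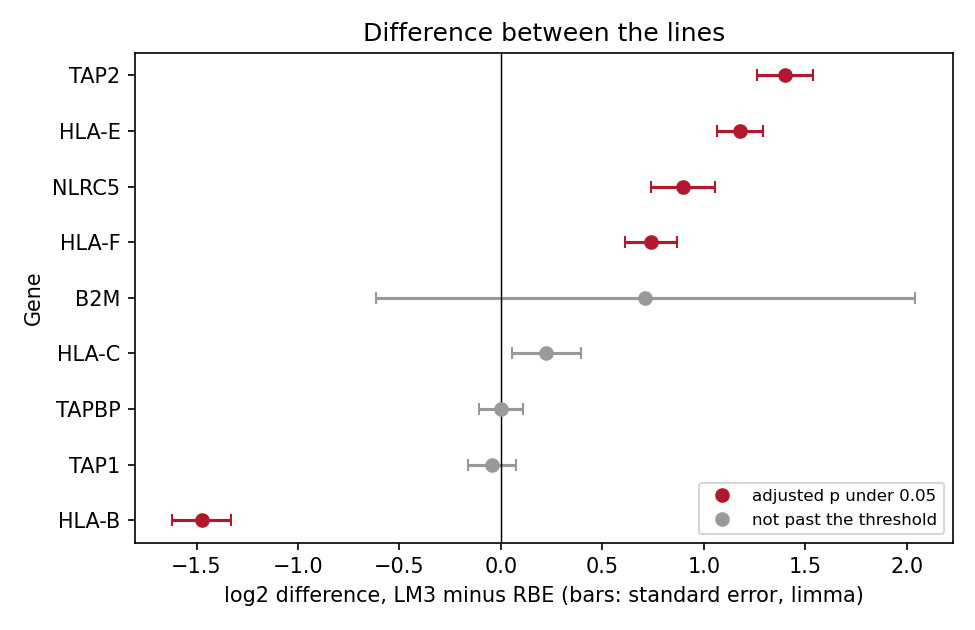
Difference of LM3 minus RBE in log2(FPKM + 1) over both transfections, with standard errors from limma, for the 9 class I pathway genes. TAP2, HLA-E, NLRC5 and HLA-F are past the threshold to the right, HLA-B to the left, and B2M has the widest bar.

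In LM3, B2M had the highest level per gene length of the class I genes in both libraries. With si-FENDRR, B2M at 62.6 and HLA-E at 61.1 FPKM stood almost level in LM3, above TAPBP, HLA-C, TAP1, TAP2, HLA-B, NLRC5 and HLA-F. With si-NC, B2M at 377 FPKM in LM3 stood above HLA-E at 75.4, and HLA-C, TAPBP, TAP1, TAP2, HLA-B, NLRC5 and HLA-F followed. In RBE, B2M at 238 FPKM led with si-FENDRR, while with si-NC HLA-C at 39.7 FPKM stood above B2M at 36.5. HLA-B, TAPBP and HLA-E lay between 27.7 and 31.5 FPKM in RBE, and TAPBP stood just above HLA-E in both RBE libraries, while HLA-B was above both with si-FENDRR and below both with si-NC. With 1 library per transfection, no spread tells these 3 levels apart. TAP2, NLRC5 and HLA-F were the 3 lowest in RBE in both libraries, between 1.79 and 3.63 FPKM.

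Genes that make and trim the peptides or fold the heavy chain stayed under 2-fold between the transfections. Of 24 such genes, 24 were tested and 0 were called over both lines by limma. Median log2 differences were 0.01 in LM3 and 0 in RBE, with 6 lower and 7 higher in both lines, where 21.8% and 26.9% of all tested genes were. Between the lines 3 were called higher and 9 lower in LM3, where 32.3% and 26.4% of all tested genes were. PSMB9, an interferon-inducible catalytic subunit of the immunoproteasome whose gene overlaps the span of TAP1 with 0 shared exonic bases, was at 17.1 and 19.9 FPKM in LM3 (si-FENDRR and si-NC) against 2.91 and 3 in RBE (2.30 ± 0.13 SE on the log2 scale, adjusted p = 0.00143 by limma). ERAP2, an aminopeptidase that trims peptides in the endoplasmic reticulum, was at 5.69 and 4.89 FPKM in LM3 against 1.12 and 0.834 in RBE, and TAPBPL, a peptide editor related to tapasin, at 6.26 and 6.22 against 3.30 and 4.52. The 3 with the largest difference toward RBE were SPPL2A, an intramembrane protease, at 4.34 and 4.57 FPKM in LM3 against 8.47 and 10.1 in RBE, the proteasome activator subunit PSME1, at 41.6 and 43.8 against 69.2 and 77.4, and the chaperone HSPA5, at 71.4 and 66.3 against 111 and 123. All 6 were called by limma.

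Of 25 genes that carry interferon signals or bind class I promoters, 21 were tested and 0 were called between the transfections. CREB1, whose protein binds the X box of class I promoters, was at 2.23 FPKM (si-FENDRR) and 6.12 FPKM (si-NC) in LM3, and at 4.40 (si-FENDRR) and 3.48 (si-NC) in RBE. RELA, the p65 subunit of NF-kappa B, was at 43.1 FPKM (si-FENDRR) and 47.5 FPKM (si-NC) in LM3, and at 22.2 (si-FENDRR) and 48.3 (si-NC) in RBE. These were the only genes of the list past 2-fold, 1 in each line. Median log2 differences were 0.01 in LM3 and 0.10 in RBE, with 3 genes lower and 9 higher in both lines (21.8% and 26.9% of all tested genes). Between the lines 6 were called higher and 3 lower in LM3 (32.3% and 26.4% of all tested genes). The interferon partner gene IRF9 was at 4.87 and 3.93 FPKM in LM3 against 8.71 and 9.70 in RBE, and NFYC, a subunit of the Y box binding factor, at 13.9 and 8.16 against 25.4 and 22.1. IFNGR1, a chain of the interferon gamma receptor, was at 68.1 and 61.1 FPKM in LM3 against 16.4 and 13.9 in RBE, USF2 at 127 and 126 against 42.4 and 39.5, and NFKB1 at 16.4 and 13.6 against 5.77 and 5.64.

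Of 16 class II and other MHC-like genes, 10 were tested; the other 6, HLA-DRA, HLA-DQA1, HLA-DPA1, HLA-DPB1, HLA-G and CD1D, were under 1 FPKM in every library. None of the 10 was called between the transfections by limma or reached 2-fold in FPKM + 1 in a line. As a plain ratio of FPKM, MICB passed 2-fold in RBE, at values under 1 FPKM. The median log2 differences of the 10 were 0 in LM3 and 0.08 in RBE, with 1 lower and 3 higher in both lines, against 21.8% and 26.9% of all tested genes. Between the lines 3 were called higher and 4 lower in LM3, against 32.3% and 26.4% of all tested genes. MICA and MICB, stress-induced ligands of the receptor NKG2D, stood opposite each other: MICA was at 9.96 and 9.25 FPKM in LM3 against 39.1 and 35.4 in RBE (-1.85 ± 0.11 SE, adjusted p = 0.00166 by limma), and MICB at 11.7 and 11.8 against 0.23 and 0.759 (3.12 ± 0.18 SE, adjusted p = 0.00156 by limma). MR1, which presents vitamin B metabolites, was at 2.52 and 2.66 FPKM in LM3 against 16.2 and 10.3 in RBE, and HLA-DRB1 was listed at 0 in LM3, against 2.11 and 2.81 FPKM in RBE. FCGRT, a heavy chain that pairs with B2M to carry IgG, was at 26 and 25.6 FPKM in LM3 against 11.7 and 12.3 in RBE, and AZGP1 at 2.30 and 1.82 against 1.04 and 0.709.

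**Figure D5:**
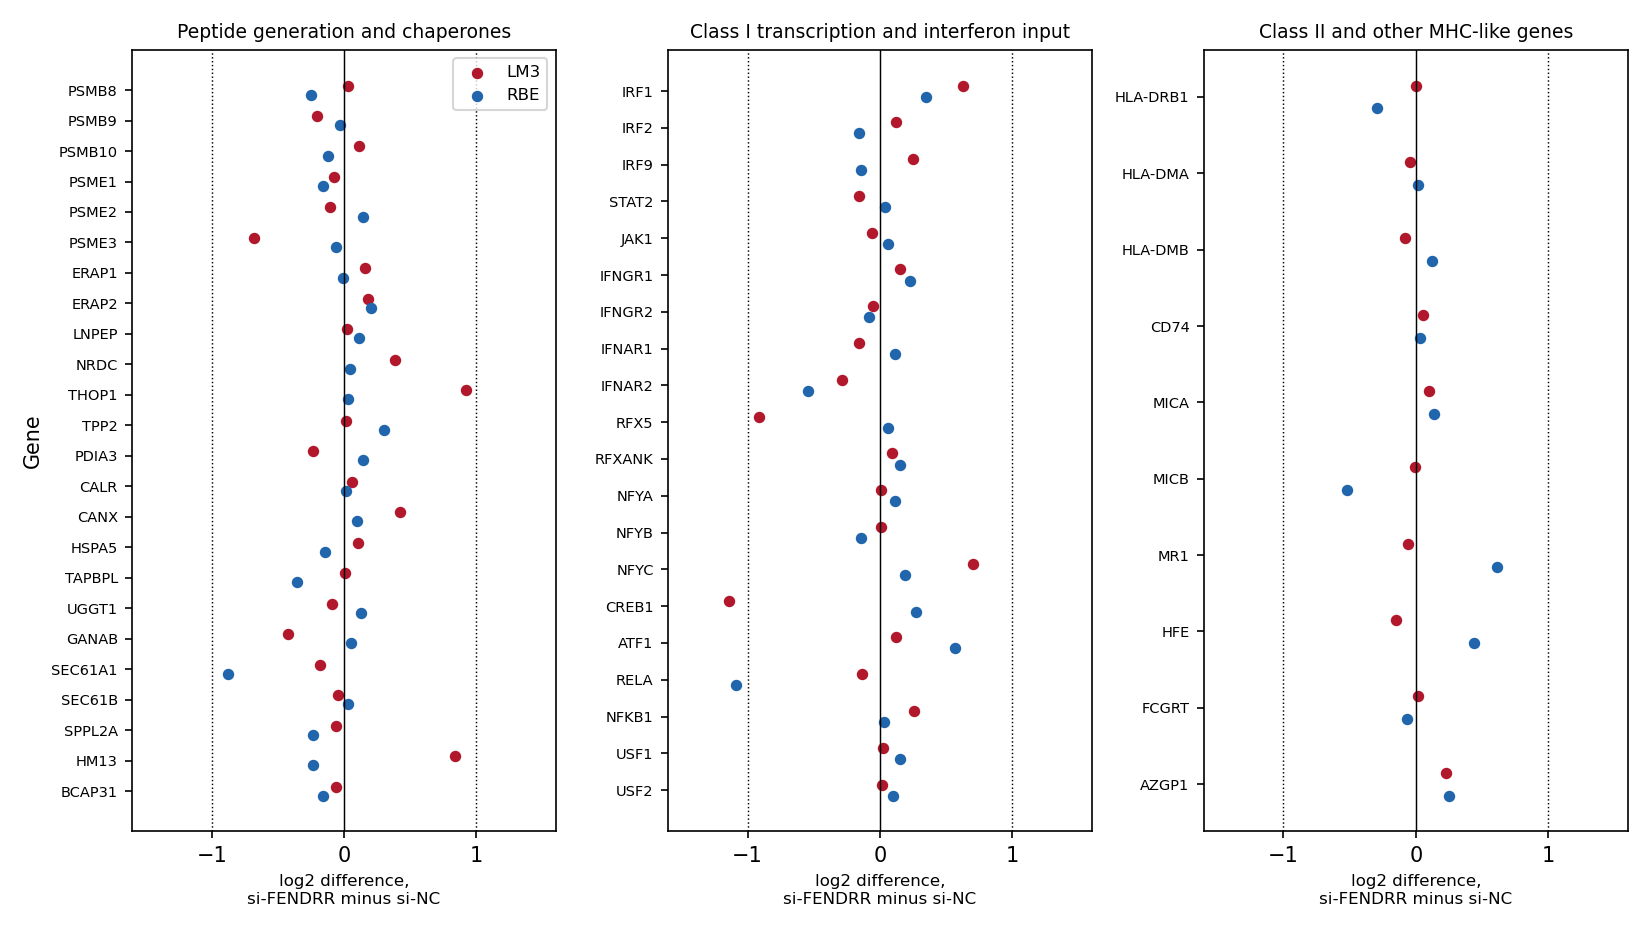
Difference of si-FENDRR minus si-NC in log2(FPKM + 1) in LM3 (red) and RBE (blue) for tested genes of 3 related lists, with dotted lines at 2-fold. CREB1 in LM3 and RELA in RBE lie past 2-fold lower, and all other points lie inside the lines.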

How the data were processed

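Messenger RNA libraries of LM3 and RBE cells, 1 per line and transfection, were described by the gene table the authors deposited. Its values are FPKM, per the file headers; the 4 single-library tables differ from it in 0 values. The tools listed are FastQC and HISAT2 and the build is hg38, per the submitters' processing notes; no source used here gives the program that computed FPKM, its annotation or its handling of reads matching several genes. Of 58174 listed genes, 57836 matched GENCODE 29, the source of exons and transcripts. In single-exon genes only 11.4% to 16.6% of low values came within 0.02 of whole multiples of the commonest step, so reads were not recovered, the depth is unknown and no counting interval is given.

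The test was limma version 3.58.1 in R version 4.3.3 on log2(FPKM + 1), with a trended prior and terms for line and transfection, fitted across all 15930 genes reaching 1 FPKM in any library, with Benjamini-Hochberg adjustment at 0.05. It was also run on data simulated from its own prior, with transfection changes larger than any seen in the class I genes. That run cannot tell how the fit does with smaller changes. The pairing of libraries comes from the cell line, and the fit leaves 1 residual degree of freedom. Much of each limma standard error is therefore borrowed from the spread of other genes through the prior. HLA-F, at -0.096 in LM3 and -0.107 in RBE, still had a standard error of 0.128. The p-values and intervals thus measure only in part how alike the 2 lines, or the 2 transfections, are. Fold changes on this scale understate those of low genes. Within a line, 2-fold differences in FPKM + 1 were counted with no test, and folds of single genes are ratios of FPKM.

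The 9 members, the related lists and the promoter words were chosen with earlier results of these data known. Named from the related lists were genes past 2-fold within a line or called between transfections, and the 3 with the largest line difference in each direction; 3 nearest profiles were named for each of the 2 members that moved most. Every listed gene whose span overlaps a member was named. Some genes that these rules or the marker lists cover are not reported here. Alternatives covered pseudocounts, filters, scaling, model terms and the prior; leaving out single libraries was added after the data were seen.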

Additional observations from a re-analysis of the deposited data

Results flagged for a closer look

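B2M and HLA-B were singled out because their differences between si-FENDRR and si-NC had opposite signs in the 2 lines. The difference between the lines was not tested, since each line has 1 library per transfection. For B2M the log2 difference in LM3 minus that in RBE was -5.24, from -2.57 in LM3 and 2.67 in RBE. For HLA-B it was 0.36, from 0.33 in LM3 and -0.03 in RBE, and with libraries scaled to equal FPKM totals the HLA-B difference in RBE was 0.0051. Opposite signs were seen in 47.1% of all tested genes.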

How the results depend on the processing

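The count of 0 genes, and of 0 of the 9 class I genes, called between si-FENDRR and si-NC by limma was the same under all 8 alternatives run on it, including the fit with no replicate block. Without the line term, pairing by cell line is dropped and the count was 0 as well. Between the lines, 9348 genes were called, 6209 with an FPKM of at least 1 required in all libraries (fewer genes tested), 9643 with the transfection term left out, and 5615 to 7009 with single libraries left out, fits that also lack the transfection term. Of the 9 class I genes, 5 were called between the lines under each alternative that kept all libraries, and 2 to 4 with single libraries left out. Genes past 2-fold in LM3 and RBE numbered 339 and 279, 940 and 818 with a pseudocount of 0.1, 100 and 83 with a pseudocount of 5, 177 and 156 with FPKM of at least 1 in all libraries, and 1269 and 999 past 1.5-fold. At 1.5-fold, 2 of the 9 class I genes passed in LM3.

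Among the 4 genes not called between the lines, signs changed. TAPBP was at 0.03 with equal FPKM totals. With single libraries left out, TAPBP ranged from -0.07 to 0.07, TAP1 from -0.13 (without RBE si-FENDRR) to 0.04 (without RBE si-NC), HLA-C from -0.49 (without RBE si-FENDRR) to 0.93 (without RBE si-NC) and B2M from -0.62 (without RBE si-NC) to 2.05 (without RBE si-FENDRR), none of them called in any fit. The cause was not tested. Of 288 values of single genes under alternatives, 271 kept direction and side of the threshold. With all libraries kept, changes of filter, prior or model term cannot alter the differences themselves. Only the p-values can change there, so part of this count was fixed in advance. Of all line calls 55.1% were higher in LM3, and 49.9% with median-of-ratios scaling. Precision is limited by 1 library per group and by the unknown depth.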
